A study of Mus musculus with 14 samples.

Results

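The brain of KO2 mice was followed here from the embryonic stage E19.5 (close to birth) to adulthood, in 4 of the 14 libraries of the series. Members were genes that reached 1 FPKM (fragments scaled to transcript length and sequencing depth) in at least 2 of the 4 KO2 libraries, leaving out small RNA entries named Mir, Snor or Scarna. Of 23375 genes in the table, 13695 were members, 8947 stayed under the minimum and 733 were small RNA entries. Among the members, 390 reached the minimum only through the adult libraries and 455 only through the E19.5 libraries, so these had to differ between the stages to be counted and are no evidence by themselves.

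KO2 denotes loss of the H19-DMR and the IG-DMR, differentially methylated regions at which parental imprints are read. Embryos were obtained by using modified haploid embryonic stem cells. From knowledge of the study rather than its labels, KO2 joins a pair of maternal genomes, so the deletions and the parental origin of the genomes cannot be told apart in any KO2 group. The groups were E19.5 KO2, adult KO2, E19.5 wild type and the adult wild type of set 1, with 2 libraries each. The ages of the adults, the strain and the sex are not in the labels, and nothing there says that the 2 libraries of a group came from separate animals. All p-values therefore measure the spread between these libraries, which may be technical. E19.5 KO7 brains (loss of DMRs at Gnas, Nespas, Peg3, Snrpn, Grb10, Igf2r and Kcnq1), adult KO3 brains (the KO2 deletions and that of the Rasgrf1-DMR) and wild-type set 2 serve below only where they bear on a KO2 value.

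Around birth the mouse forebrain passes from making and placing neurons to building circuits. Neurons then shut down genes for migration and axon growth and turn on channels, receptors and release machinery, astrocytes acquire their transporters, and oligodendrocytes start to make myelin. The H19-DMR controls the growth factor gene Igf2 and the noncoding RNA H19, and the IG-DMR controls the Dlk1 to Dio3 region with the noncoding RNA Meg3. H19 is itself a fetal RNA that is shut down in most tissues after birth.

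The 8 libraries each reached 1 FPKM in 13001 to 13398 genes, and libraries of a group correlated across genes with r of 0.986 to 0.991. Read depth is unknown because FPKM keeps no totals. Several libraries stood apart from their partner. Xist, the RNA of the inactive X chromosome, was 1.5 FPKM in E19.5 KO2 replicate 1 and 84 in replicate 2, against 117 and 106 in E19.5 wild type. E19.5 KO7 held 0.0159 and 0.0402 FPKM of Xist. A brain built from a pair of maternal genomes should carry a pair of X chromosomes and express Xist. Why KO2 replicate 1 held little of it, and whether its label is right, was not tested. The counts without this library are given beside the E19.5 results below. Its level of Rasgrf1, an imprinted gene low in KO2, was 2.94 FPKM, against 0.672 in replicate 2 and 12 and 12.7 in E19.5 wild type. The summed level of 4 skin and muscle markers was 31.7 FPKM in that same E19.5 KO2 replicate 1 and 5.32 to 9.93 in the other E19.5 libraries, almost all of it from the muscle actin gene Acta1. Adult KO2 replicate 1 held 1170 FPKM of 5 choroid plexus markers against 123 in replicate 2, and less of the striatal gene Penk (79.4 against 159) and of the hypothalamic hormone gene Avp (0.47 against 96.1). The summed erythroid markers were 95 FPKM in E19.5 wild-type replicate 1 and 519 in replicate 2. The part of these differences in the results was not tested except where a value without the library is given. All 5 neuronal markers were above 0 in every group, in keeping with the brain label, at a summed 2330 and 2430 FPKM in E19.5 KO2 and 2370 and 2520 in E19.5 wild type.

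The KO2 brain changed broadly between the stages. On the log2(FPKM + 1) scale, which understates the changes of low genes, 3493 members were higher in adult KO2 (25.5% of genes tested) and 4860 were lower (35.5%), by limma with adjusted p under 0.05. Changes of at least 1 on that scale numbered 1225 rises and 1154 falls. The 10 largest rises were led by myelin genes (among them Mobp, Mbp, Mal, Opalin, Hapln2 and the iron carrier gene Trf), joined by Arc, a synaptic activity gene, Ddn, a dendritic protein gene, and Pvalb of fast-spiking interneurons. Mobp, a myelin protein gene, stood at 4.34 and 1.06 FPKM in the E19.5 KO2 libraries and at 90.5 and 125 in the adult ones. It rose by 5.02 ± 0.39 (log2, SE; adjusted p = 2.65e-05).

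The largest fall was that of Dpysl3, which acts in axon growth cones. It went from 616 and 545 FPKM at E19.5 to 15.7 and 16.7 in adult KO2, a log2 change of -5.08 ± 0.12 (adjusted p = 3.74e-07). H19 changed by -5.02 and was close to 0 in both adult libraries. The other 8 of the 10 largest falls were St8sia2, Cd24a, Gpc2, Trim67, Dcx, Dpysl5, Tubb2b and Igfbpl1, at -4.00 to -4.64. Several act in neurite growth or migration, among them Dcx, which binds microtubules in migrating neurons, and St8sia2, which adds polysialic acid to adhesion proteins.

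To set this course beside that of wild type, the same stage change was taken from adult wild-type set 1 and E19.5 wild type in one fit of all 8 libraries. In wild type 3566 genes were higher in adult (26%) and 5524 lower (40.3%). Across the 13695 genes the KO2 and wild-type stage changes had Pearson's r of 0.898 and Spearman's rho of 0.864, as a description, since genes are not independent and all groups share a platform and pipeline. Scaling by median of ratios shifts the median wild-type change of all genes from -0.16 to about 0, and so moves the share of higher among called genes from 39.2% to 50.8% in wild type. KO2 changes spanned less: the SD over genes was 0.83 in KO2 and 0.928 in wild type.

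Genes with a called wild-type change of at least 1 (log2) are named stage genes below. There were 2981 of them, 1397 higher and 1584 lower in adult wild type. In KO2, 2850 of them were called in the same direction, 130 were not called and 1 was called in the opposite direction. That gene was Txnip.

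**Figure D1:**
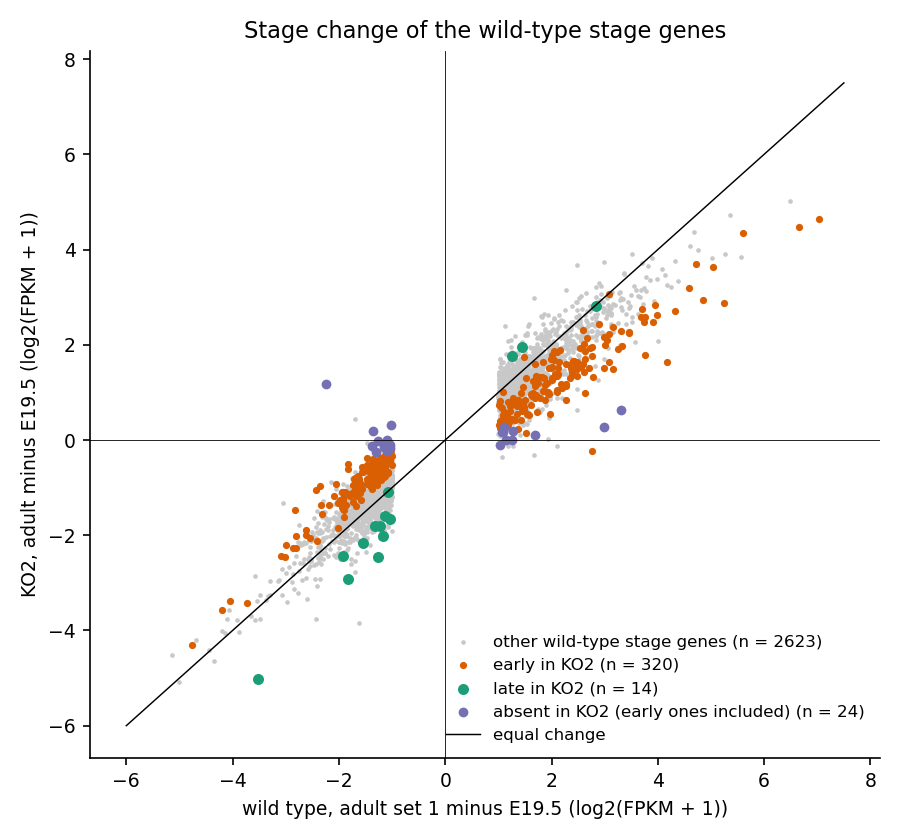
Stage change (adult minus E19.5, log2(FPKM + 1)) of each of the 2981 stage genes in wild type (horizontal axis) and in KO2 (vertical axis), 1 point per gene, with the line of equal change. Most points lie along the line, 339 early genes in KO2 (320 in orange, and 19 of the 24 absent ones in purple) lie mainly on the side of a smaller KO2 change, which the rule that chose them favours, and Txnip is the purple point at the upper left with a wild-type change of -2.24 and a KO2 change of 1.17.

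The stage change itself differed between KO2 and wild type (the difference of the differences, called the stage difference) at 405 genes, 241 with a higher KO2 value (1.76%) and 164 with a lower one (1.2%). Of these, 171 were stage genes, and the KO2 change was the smaller one in 164 and the larger one in 7. Stage genes were chosen for a large wild-type change and the same wild-type libraries enter the stage difference, so the choice favours a smaller KO2 change and nothing is read from this split. The split depends on scaling: with median-of-ratios scaling 35.1% of the called stage differences were higher in KO2, against 59.5% as deposited, and with quantile scaling 41.6%. The number is fragile too, since leaving out any 1 of the 8 libraries left 3 to 121 calls and fitting all 14 libraries left 7. Without adjustment 3514 genes had p under 0.05.

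The groups were then compared within each stage. E19.5 KO2 was higher than E19.5 wild type at 444 genes (3.24%) and lower at 348 (2.54%), whereas adult KO2 was higher than adult wild-type set 1 at 27 (0.197%) and lower at 9 (0.0657%). A stage gene was named early in KO2 where the E19.5 difference passed the test in the direction of its wild-type change, and late where it passed in the opposite direction. By this rule 339 stage genes were early (11.4%) and 14 were late (0.47%). The early genes comprised 184 that rise with age and 155 that fall. Of the 171 stage genes with a stage difference, 138 were early. The 339 early genes had covered a median of 37.9% of the wild-type span at E19.5 (quartiles 30.4 and 51.2), a description only, since they were chosen by that difference.

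The E19.5 wild-type libraries enter both the direction of a stage gene and its E19.5 difference, so chance deviations of these 2 libraries favour early over late calls. Directions were therefore also taken from adult wild-type set 1 minus E19.5 KO7, which shares no library with the E19.5 difference. Of 3123 stage genes defined that way, 272 were early and 29 late. Over the 3138 genes with non-overlapping libraries and a difference of at least 1 on that axis, E19.5 KO2 lay on the adult side of E19.5 wild type in 2263, by a median of 0.15 (log2). For genes rising with age 149 were called toward adult and 4 away, and for falling genes 124 and 25.

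On the same axis the E19.5 KO2 libraries lay at 12.9% and 9.6% of the way from E19.5 wild type to adult wild type. The E19.5 wild-type libraries lay 0.353 percentage points to either side of 0, and the KO7 libraries, which helped to define the axis, at -11.2% and -12.8%. Both adult KO2 libraries lay at 98.1%, within the 97.1% and 103% of the adult wild-type libraries. Both E19.5 KO2 libraries were thus beyond the wild-type ones, while the adult groups overlapped.

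**Figure D2:**
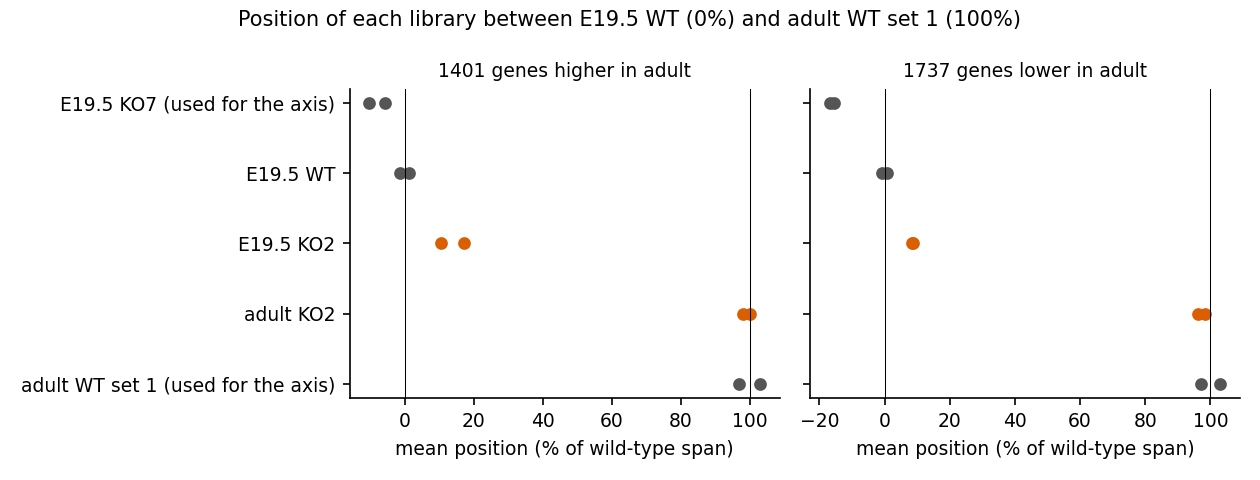
Mean position of each library (1 point) between E19.5 wild type (0%) and adult wild-type set 1 (100%), over 1401 genes that are higher and 1737 that are lower in adult by libraries outside the E19.5 KO2 and wild-type groups. E19.5 KO2 sits at 17.3% and 10.5% for rising genes and at 8.34% and 8.65% for falling genes. Adult KO2 sits at 98% and 100% for rising genes, between the set 1 libraries at 97% and 103%, and at 98.2% and 96.2% for falling genes, the latter below the set 1 libraries at 97.2% and 103%.

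The count of early genes rests on the E19.5 libraries. Leaving out E19.5 wild-type replicate 1 left 21 early genes (20 of them among the 339), and leaving out its replicate 2 left 132. Leaving out KO2 replicate 1 left 45 (44 of them among the 339), and leaving out its replicate 2 left 60. A fit of all 14 libraries gave 96. Leaving out an adult library gave 275 to 292. Labels carry no staging of the embryos beyond the day, so a difference in true age within E19.5 cannot be told apart from a difference in maturation.

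Txnip showed the most divergent course of any stage gene. It encodes a thioredoxin-binding arrestin-like protein that limits glucose uptake and is switched on when sugar phosphates accumulate in the cell. Its level was 35.7 and 30.9 FPKM in wild type at E19.5, 5.01 and 5.16 in E19.5 KO2, 5.61 and 6.98 in adult wild-type set 1 and 12.2 and 13.2 in adult KO2. The 4 groups did not overlap, and E19.5 KO2 lay just below adult wild type. Txnip fell with age in wild type by 2.24 ± 0.12 and rose in KO2 by 1.17 ± 0.12, a stage difference of 3.41 ± 0.17 (adjusted p = 0.000556). The stage difference and the E19.5 difference passed in 18 of 18 alternative settings of the fit. The adult part is less firm: adult wild-type set 2 held 9.46 and 7.61 FPKM and adult KO3 9.52 and 15.

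Arrdc4, the closest relative of Txnip in function and known to respond to the same glucose-sensing factors, moved alike at E19.5. Its level was 18.3 and 14.7 FPKM in wild type at E19.5, 4.84 and 6.61 in E19.5 KO2, 3.5 and 4.35 in adult wild type and 3.71 and 3 in adult KO2. The E19.5 groups did not overlap and the adult groups did, and the E19.5 difference passed in 16 of 18 settings. Arrdc4 was lower in E19.5 KO2 by 1.38 ± 0.17 (the log2 difference is -1.38, adjusted p = 0.00804) and had covered 75.7% of its wild-type decline. Arrdc3, another member of the family, was 21.8 and 19.6 FPKM in wild type at E19.5, 9.82 and 12.9 in E19.5 KO2, 9 and 10.3 in adult wild type and 13.8 and 14.8 in adult KO2. Its stage difference was 1.35 ± 0.19 (adjusted p = 0.0277).

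Txnip and Arrdc4 are known to be driven through carbohydrate response elements, pairs of E-box-like sites near their start that bind MondoA or ChREBP with Mlx. Because these genes share the lower E19.5 level, the 250 bases before each start are shown (RefSeq, build GRCm38.p6, 5′ to 3′ on the gene's strand), with matches to CACGTG or CACGAG on either strand in capitals. The Txnip window is chr3:96557707-96557956, plus strand, and the Arrdc4 window is chr7:68749239-68749488, minus strand.
Txnip: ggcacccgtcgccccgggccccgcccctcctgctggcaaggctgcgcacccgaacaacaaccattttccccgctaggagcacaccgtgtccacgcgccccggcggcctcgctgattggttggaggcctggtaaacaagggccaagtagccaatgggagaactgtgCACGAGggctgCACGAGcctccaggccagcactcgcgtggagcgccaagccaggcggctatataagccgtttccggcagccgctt
Arrdc4: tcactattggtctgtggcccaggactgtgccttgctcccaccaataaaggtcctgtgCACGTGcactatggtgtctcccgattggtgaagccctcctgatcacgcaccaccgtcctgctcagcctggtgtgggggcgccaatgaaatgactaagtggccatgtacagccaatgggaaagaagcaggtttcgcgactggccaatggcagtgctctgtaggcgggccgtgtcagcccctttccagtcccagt
Txnip holds CACGAG at 85 and 74 bases before the start, and Arrdc4 holds CACGTG at 193 bases before it. Of 27025 RefSeq promoters of this length, 11.1% hold at least 1 such match and 1.08% at least 2. A match describes the letters only and is no evidence of binding in these brains.

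Other genes of glucose handling did not share one direction. Of 17 tested members of a list of glucose uptake and hypoxia genes, 4 were higher and 2 (Txnip and Arrdc4) lower in E19.5 KO2, where 3.24% of all genes tested were higher and 2.54% lower. Without any 1 E19.5 library 2 were higher and 1 or 2 lower. Slc2a1, the glucose transporter of the blood-brain barrier, was 18.5 and 20.2 FPKM in wild type at E19.5, 54.2 and 53.6 in E19.5 KO2, 37.1 and 40.5 in adult wild type and 51.6 and 63.1 in adult KO2. It rose with age in wild type by 0.97 ± 0.11, while the KO2 change was 0.08 ± 0.11 (stage difference -0.89, adjusted p = 0.0409). Hif3a, an antagonist of the hypoxia response, was at 5.2 and 4.76 FPKM in E19.5 KO2 against 1.14 and 0.907 in wild type (adjusted p = 0.0042). Neither rise was particular to KO2: E19.5 KO7 held 63.7 and 51.6 FPKM of Slc2a1 and 4.1 and 3.7 of Hif3a. Its Arrdc4, at 18.8 and 13.6 FPKM, overlapped wild type. Its Txnip, at 28.1 and 21.6 FPKM, and its Arrdc3, at 15.1 and 14, lay below E19.5 wild type and above E19.5 KO2. The hexokinases Hk1 and Hk2, Ldha and Vegfa did not pass at E19.5, with log2 differences of 0.12, 0.13, 0.24 and 0.51.

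The metallothioneins are small zinc and copper binding proteins that are abundant in astrocytes and induced by metals and glucocorticoids. In E19.5 KO2 their genes were well above E19.5 wild type, toward the level of adult wild-type set 1. Mt1 averaged 188 ± 10.1 FPKM (SD, n = 2) in wild type at E19.5 and was 975 and 1180 in E19.5 KO2, 1890 and 1860 in adult wild-type set 1 and 1800 and 1550 in adult KO2. The E19.5 groups stood far apart, by 2.51 ± 0.13 (log2, adjusted p = 0.000382). Mt3, the brain form, was 121 and 137 FPKM in wild type at E19.5, 439 and 637 in E19.5 KO2, 1050 and 996 in adult wild type and 639 and 643 in adult KO2. Its KO2 stage change of 0.28 did not pass (adjusted p = 0.18) beside a wild-type change of 2.98. Mt2 was 187 and 161 FPKM in wild type at E19.5 and 578 and 698 in E19.5 KO2, 1.87 higher (adjusted p = 0.00137).

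Metallothionein levels varied widely among adults. Mt1 was 363 and 613 FPKM in adult wild-type set 2 and 994 and 2730 in adult KO3. Set 2 held 197 and 357 FPKM of Mt2 and 301 and 400 of Mt3. E19.5 KO2 thus lay below adult set 1 but above both set 2 libraries in Mt1 and Mt3, and above set 2 in Mt2. With set 2 in place of set 1, the stage difference of Mt1 was -0.69 (adjusted p = 0.223), down from -2.68, and that of Mt2 turned to 0.24. The early call tests the E19.5 difference, but the adult wild type decides which genes are stage genes and in which direction. Adult libraries also enter the shared estimate of the spread. With set 2 in place of set 1, 240 genes were early, 190 of them among the 339. E19.5 KO7, at 241 and 132 FPKM of Mt1, overlapped E19.5 wild type, while its 331 and 224 FPKM of Mt3 lay above it. The E19.5 differences of Mt1 and Mt3 passed in 18 of 18 alternative settings and that of Mt2 in 17.

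Metal response elements, read by the zinc sensor MTF-1, are the known switches of Mt1 and Mt2, so the same window of both is shown with matches to TGCGCNC or TGCACNC on either strand in capitals (RefSeq, GRCm38.p6, plus strand). The Mt1 window is chr8:94178839-94179088 and the Mt2 window chr8:94172368-94172617.
Mt1: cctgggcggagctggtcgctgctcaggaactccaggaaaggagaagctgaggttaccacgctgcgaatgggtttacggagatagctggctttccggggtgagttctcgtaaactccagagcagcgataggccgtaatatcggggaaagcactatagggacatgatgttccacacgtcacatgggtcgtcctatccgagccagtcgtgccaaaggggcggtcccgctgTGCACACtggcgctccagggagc
Mt2: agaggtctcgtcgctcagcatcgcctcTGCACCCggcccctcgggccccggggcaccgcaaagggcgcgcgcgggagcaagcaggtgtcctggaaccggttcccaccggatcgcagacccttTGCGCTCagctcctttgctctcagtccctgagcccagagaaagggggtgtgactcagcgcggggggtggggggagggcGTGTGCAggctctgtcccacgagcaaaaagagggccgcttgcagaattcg
These windows held 1 match for Mt1 and 3 for Mt2, 1 of them on the opposite strand, while that of Mt3 held none. Only the 250 bases before the first listed RefSeq start of each gene were searched, so elements elsewhere are not in these counts. Among the 27025 promoters 21.3% hold at least 1 match and 1.28% at least 3.

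Astrocyte genes were the cell type list with the most early members. Of 22 tested, 20 rose with age in wild type and 18 in KO2, where 26% and 25.5% of all genes rose. Of the 20 that were stage genes 13 were early, against 11.4% of all stage genes. The list's median stage change was 1.16 in KO2 and 1.99 in wild type, where the medians over all genes were -0.10 and -0.16. By the stage difference 7 members had a smaller KO2 change, where 1.2% of all genes had a lower KO2 value. The summed level of 6 astrocyte markers at E19.5 was 439 and 424 FPKM in KO2 and 181 and 218 in wild type. The median E19.5 difference of the list was 0.73 (log2). It was 0.62 without E19.5 KO2 replicate 1 and 0.64 without wild-type replicate 1, but then 3 and 2 members passed as early, and 4 passed without KO2 replicate 2. In bulk tissue more cells of a type and more RNA per cell cannot be told apart.

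Fam107a, a gene of radial glia and astrocytes, had the largest E19.5 rise among early genes. It was 1.51 and 1.28 FPKM in wild type at E19.5, 14.1 and 11.7 in E19.5 KO2, 104 and 78.7 in adult wild type and 109 and 93.4 in adult KO2. The E19.5 groups differed by 2.53 ± 0.15 (adjusted p = 0.000563), while the adult groups overlapped. Aldoc, the aldolase of astrocytes, was 65.6 and 79.4 FPKM in wild type at E19.5, 212 and 222 in E19.5 KO2, 626 and 616 in adult wild type and 636 and 715 in adult KO2. It was 51% of the way to its adult level, and the E19.5 differences of both genes passed in 18 of 18 settings. E19.5 KO7 was above wild type as well, and below E19.5 KO2, in Aldoc (149 and 89.8 FPKM) and Fam107a (3.18 and 1.72). In the astrocyte receptor gene Ntsr2 it overlapped wild type, at 3.41 and 2.06 FPKM. Further early members were Apoe, the main lipid carrier of the brain, 61.9% of the way, the glutamate transporter gene Slc1a3 at 59.6%, Ndrg2 at 50.6% and S100b at 25.9%. Not every member was early: Gjb6, a gap junction gene, was 0.40 higher at E19.5 (adjusted p = 0.138), Slc1a2, the main glutamate transporter gene, 0.71 (adjusted p = 0.0741) and Aqp4, the water channel gene, 0.72 (adjusted p = 0.108).

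**Figure D3:**
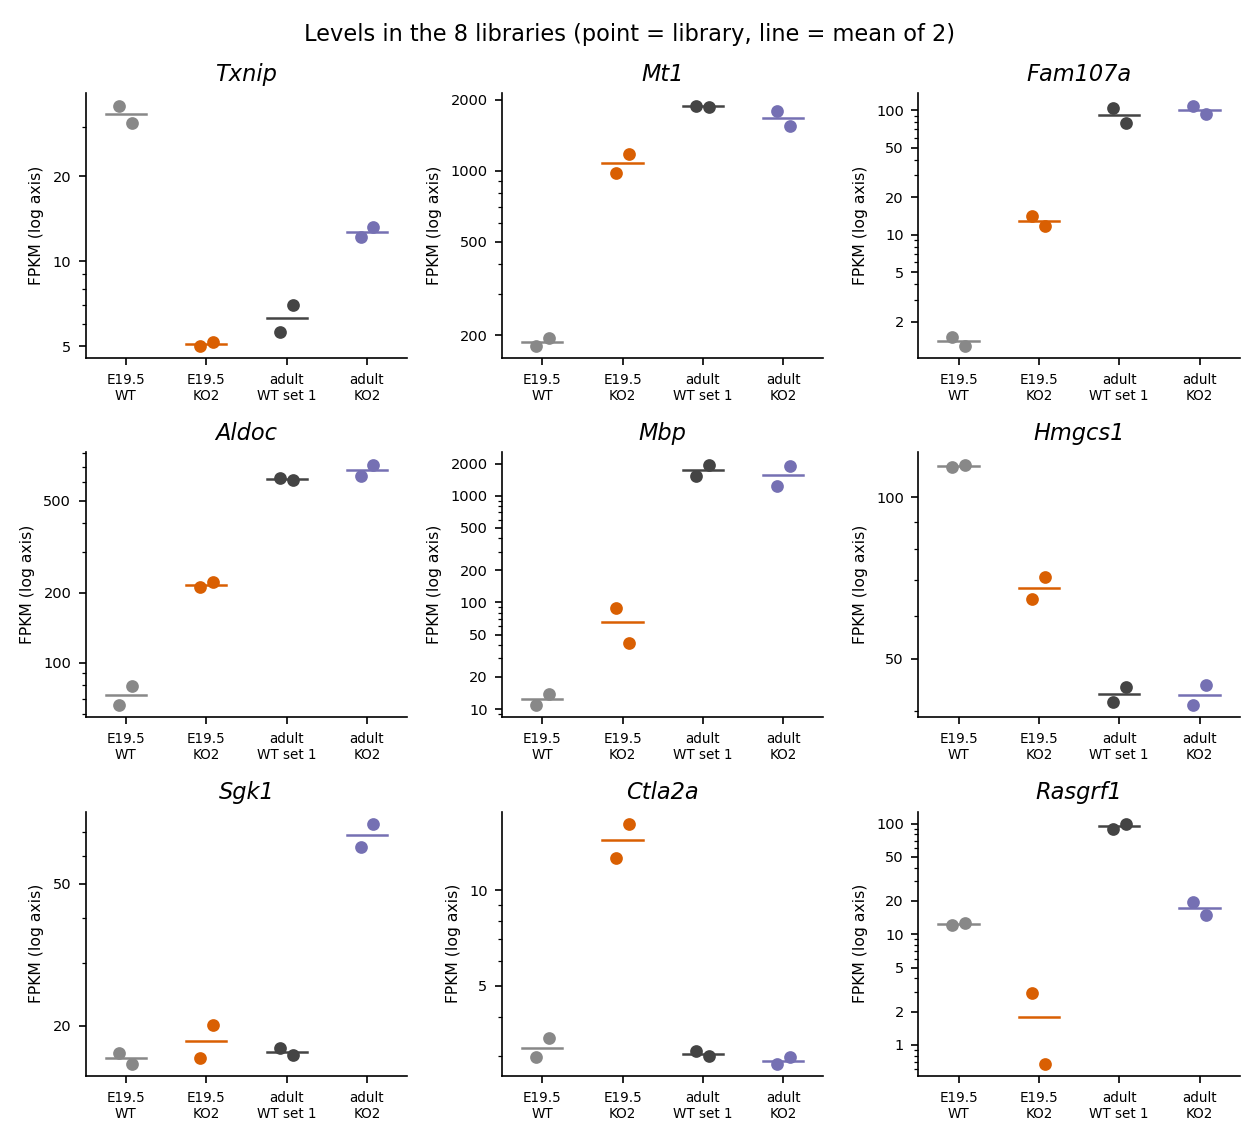
FPKM on log axes of 9 genes in the 8 libraries (points) with the mean of each group of 2 (lines). Txnip, Mt1, Fam107a, Aldoc, Mbp and Hmgcs1 show E19.5 KO2 shifted toward the adult level, Sgk1 is high only in adult KO2 among the 4 groups drawn, Ctla2a only in E19.5 KO2, and Rasgrf1 is low in KO2 at both stages.

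Cholesterol synthesis genes, active in late fetal brain and lowered with age, showed the same shift downward. Of 19 tested, 16 fell with age in wild type and 12 in KO2, where 40.3% and 35.5% of all genes fell. At E19.5 12 were lower in KO2 and none was higher (2.54% and 3.24% over all genes). Of 8 stage genes 7 were early, against 11.4% of all stage genes. Hmgcs1, which makes the precursor of mevalonate, was 114 and 115 FPKM in wild type at E19.5, 64.5 and 70.9 in E19.5 KO2, 41.5 and 44.3 in adult wild type and 41 and 44.6 in adult KO2. The E19.5 groups did not overlap (log2 difference -0.76 ± 0.08, adjusted p = 0.00631) and the adult groups did. Idi1 and Hsd17b7 had left no further fall for KO2: they fell in wild type by 0.83 each, whereas their KO2 changes of -0.07 and 0.15 did not pass.

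The stage difference passed for 6 of these 19 genes, in each with the higher value in KO2 (1.76% over all genes). Among them were Hmgcs1, Hsd17b7, Idi1, Nsdhl and Sc4mol. The last, a sterol oxidase gene, was 41 and 35.5 FPKM in wild type at E19.5, 24.3 and 26.1 in E19.5 KO2 and about the wild-type level in adults, and it rose with age only in KO2 by the test of each group (0.74, adjusted p = 0.000426, against 0.06, adjusted p = 0.628). The list's median E19.5 difference was -0.58, and between -0.53 and -0.64 without any 1 E19.5 library, although fewer than 7 then passed as early: 1 or 2 when KO2 replicate 1 or 2 was left out, and 0 or 4 when that wild-type replicate was. Members whose E19.5 difference did not pass were Dhcr7, Ebp, Mvd, Mvk, Pmvk, Sc5d and Tm7sf2.

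Myelin genes rose in every case in both genotypes, 20 of 20, where 25.5% of all genes rose in KO2 and 26% in wild type. Any that reached 1 FPKM only through the adult libraries had to rise to be counted. At E19.5 4 of these 20 were early, not far from the 11.4% of all stage genes, among them Mbp, Mal and Cnp. Mbp, myelin basic protein, was 10.9 and 13.9 FPKM in wild type at E19.5, 89.3 and 42.1 in E19.5 KO2, 1540 and 1970 in adult wild type and 1250 and 1920 in adult KO2. The 2 E19.5 KO2 libraries spread widely, with replicate 1 above replicate 2, yet neither overlapped wild type. At E19.5 Mbp was 2.23 ± 0.34 higher in KO2 (log2, SE; adjusted p = 0.0153). Its stage difference was -2.40 (adjusted p = 0.0466), and no adult difference of a myelin gene passed. Without E19.5 KO2 replicate 1 the list's median E19.5 difference went from 0.62 to 0.40 and no member passed. None passed without either wild-type replicate, and 3 passed without KO2 replicate 2. Summed over 6 oligodendrocyte markers, E19.5 KO2 held 167 and 92.9 FPKM and wild type 33.9 and 41.8.

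Among 13 genes of oligodendrocyte precursors, 3 of 6 stage genes were early (11.4% over all stage genes). They were Bcas1 and Gpr17, markers of cells about to make myelin, and Tmem100. The precursor genes proper did not pass at E19.5, with log2 differences of 0.00 for Pdgfra, 0.08 for Olig2 and 0.32 for Cspg4. Summed precursor markers overlapped between the E19.5 groups, at 107 and 99.3 FPKM in KO2 and 87.8 and 104 in wild type. Leaving out E19.5 KO2 replicate 1 or wild-type replicate 1 left 0 early, and leaving out the other replicate of either group left 1.

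Of 17 microglial genes tested, 15 rose with age in KO2 and 16 in wild type (25.5% and 26% over all genes). Of 14 stage genes 5 were early (11.4% over all) and none was late. The early ones were the complement genes C1qa, C1qb and C1qc, the lipid receptor gene Trem2 and Tmem119. C1qa was 9.43 and 9.57 FPKM in wild type at E19.5, 18.6 and 17 in E19.5 KO2, 54.6 and 45.2 in adult wild type and 36.5 and 46.5 in adult KO2 (stage difference -1.10, adjusted p = 0.0409). P2ry12, the ADP receptor gene of resting microglia, was 2.58 and 4.45 FPKM in wild type at E19.5 and 2.22 and 1.73 in E19.5 KO2, a difference of -0.58 that did not pass (adjusted p = 0.116). Outside this list, a pair of genes known from microglia were late. P2ry13, a relative of P2ry12, was 1.78 and 1.57 FPKM in wild type at E19.5 and 0.851 and 0.616 in E19.5 KO2 (-0.63, adjusted p = 0.0317), with 5.37 to 6.36 in the 4 adult libraries. Ly86, which pairs with a toll-like receptor relative, was at 2.97 and 2.37 FPKM in KO2 and 4.87 and 4.66 in wild type. E19.5 KO7 was below wild type as well in P2ry13 (1.14 and 0.887 FPKM) and Ly86 (4.36 and 3.48). In the early gene C1qa it was above wild type as well, at 18.3 and 12.9 FPKM. The early members numbered 2 without E19.5 KO2 replicate 1 or wild-type replicate 2, and 0 without KO2 replicate 2 or wild-type replicate 1.

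Of 20 genes of endothelial cells and pericytes, 4 were higher in E19.5 KO2 and none was lower, and 2 of 7 stage genes were early, where 3.24% of all genes were higher and 11.4% of all stage genes early. Without any 1 E19.5 library 2 were higher, and 1 was early, or 2 without wild-type replicate 2. Ly6c1, an endothelial surface protein gene, was 5.75 and 6.5 FPKM in wild type at E19.5, 24.6 in both E19.5 KO2 libraries, 51 and 36.6 in adult wild type and 48.1 and 50.6 in adult KO2, 70% of the way at E19.5. Cldn5, the tight junction gene, was 43.5 and 46.1 FPKM in wild type at E19.5 and 54.1 and 51.4 in E19.5 KO2, which did not pass, but 12.2 and 16.9 FPKM in adult KO2 against 33.5 and 30.8 in adult wild-type set 1 (-1.11, adjusted p = 0.0253). Adult wild-type set 2 held 17.9 and 20.4 FPKM of Cldn5, so the wild-type sets did not overlap and set 2 lay just above adult KO2. Summed over 4 endothelial markers, E19.5 KO2 held 71.4 and 67.5 FPKM, against 56.4 and 59.8 in wild type.

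Lists of neuronal and progenitor programmes held few early genes, but most are too short for a count of 0 or 1 to stand apart from the 11.4% over all stage genes. Of 28 genes of immature neurons and axon growth, 27 fell in KO2 and 28 in wild type, with medians of -2.80 and -2.76, and 1 of 26 stage genes (Sox11) was early. Cell division and DNA replication genes fell in all 19 of 19 members in both genotypes, with 0 of 14 stage genes early and a median E19.5 difference of 0.00 (log2). Over all genes 35.5% fell in KO2 and 40.3% in wild type. Members that reached 1 FPKM only through the E19.5 libraries had to fall to be counted, so the shared fall is no evidence by itself. Top2a, for example, was 7.02 and 6.59 FPKM in wild type at E19.5, 5.89 and 5.37 in E19.5 KO2 and 0.492 to 1.04 in adults. The E19.5 difference of -0.24 did not pass (adjusted p = 0.228).

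Among 20 voltage-gated potassium and HCN channel genes, which set how neurons fire, 17 rose in KO2 and 16 in wild type, and none fell in KO2 and 2 in wild type. Of 9 sodium channel genes 6 rose and 3 fell in KO2, and 5 rose and 3 fell in wild type. Of 14 genes of GABA-A receptor subunits and chloride transporters 8 rose and 1 fell in KO2, and 5 rose and 3 fell in wild type. Over all genes 25.5% rose and 35.5% fell in KO2, and 26% rose and 40.3% fell in wild type. Early genes were 0 of 13, 0 of 7 and 0 of 5 stage genes in these families. These counts are near the 11.4% over all stage genes, so nothing is read from them. Slc12a5, the chloride exporter that makes GABA inhibitory, rose by 1.01 in KO2 and 1.05 in wild type. Grin2a, the NMDA receptor subunit gained after birth, rose by 2.35 and 2.30. Immediate early genes, readouts of neuronal activity, rose in 13 of 16 in KO2 with 0 of 12 stage genes early. Egr1, 1 of them, was 15.8 and 14 FPKM in wild type at E19.5 and 6.72 and 8.07 in E19.5 KO2, below wild type in both libraries, although the difference of -0.92 did not pass (adjusted p = 0.0511).

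Some neuronal genes were early. Thy1, a surface protein gene of projection neurons, was 34.2 and 36.2 FPKM in wild type at E19.5, 77 and 94.4 in E19.5 KO2, 391 and 334 in adult wild type and 326 and 347 in adult KO2 (E19.5 difference 1.25 ± 0.12, adjusted p = 0.00378). Grin2c, the NMDA receptor subunit of cerebellar granule cells and astrocytes, was the early 1 of 5 stage genes in its family, at 2.16 and 1.75 FPKM in KO2 and 0.493 and 0.774 in wild type. E19.5 KO7 lay above wild type in Grin2c (0.805 and 0.926 FPKM) and overlapped it in Thy1 (42.4 and 29.1). Penk, the enkephalin gene of the striatum, was 16.3 and 9.48 FPKM in wild type at E19.5, 31.4 and 40 in E19.5 KO2, 228 and 259 in adult wild type and 79.4 and 159 in adult KO2. Its stage difference of -2.54 (adjusted p = 0.0415) holds the low adult KO2 replicate 1, in which other striatal genes such as Adora2a (7.73 against 15.3 FPKM in replicate 2) were low as well.

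**Figure D4:**
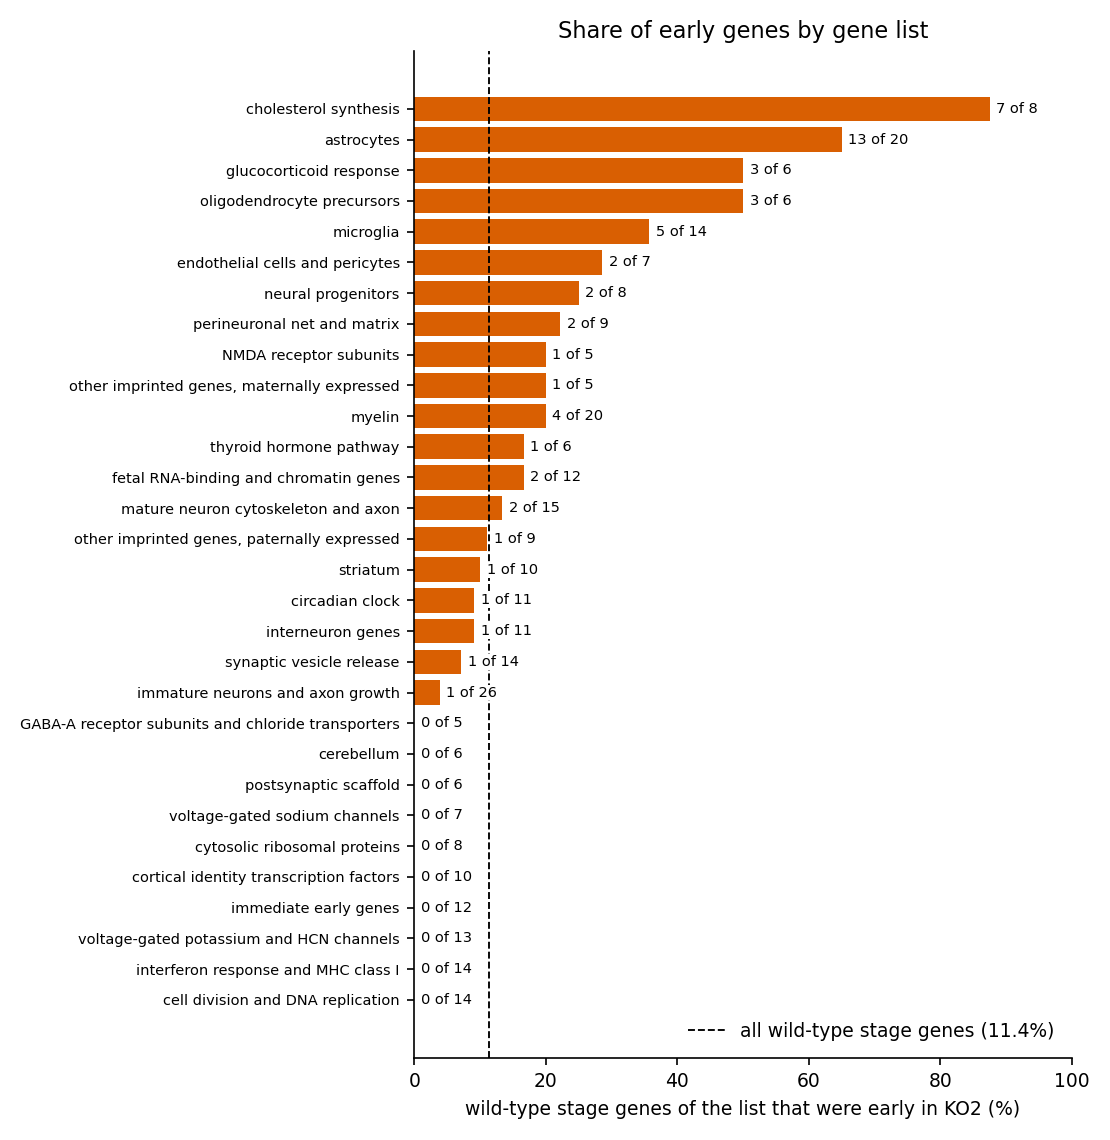
Share of the stage genes of each list that were early in KO2 (bars, percent, with the counts), for lists with at least 5 stage genes, and the share over all stage genes (dashed line, 11.4%). Cholesterol synthesis (7 of 8) and astrocyte genes (13 of 20) stand at the top, and 10 lists, among them cell division, potassium channels and immediate early genes, have 0.

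Late genes were 14, 3 that rise with age and 11 that fall. Leaving out E19.5 wild-type replicate 1 left 0, the other E19.5 libraries 2 or 3, and adult KO2 replicate 2 left 9. Rasgrf1, an imprinted gene read from the paternal copy that links calcium signals to Ras in neurons, was 12 and 12.7 FPKM in wild type at E19.5, 2.94 and 0.672 in E19.5 KO2, 89.5 and 100 in adult wild type and 19.7 and 14.8 in adult KO2. KO2 was below wild type at both stages, by 2.38 and 2.41 (the log2 differences are -2.38 and -2.41, adjusted p = 0.0121 and 0.0391). Its rise with age was 2.82 ± 0.34 in KO2, from a lower start, and 2.84 ± 0.34 in wild type, a stage difference of -0.02 ± 0.48. Adult KO3, which lacks the Rasgrf1-DMR as well, held 104 and 85.3 FPKM.

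Col4a1, a basement membrane collagen gene, was a falling late gene. It was 22.1 and 24.1 FPKM in wild type at E19.5, 45.7 and 39.5 in E19.5 KO2, 8.82 and 9.33 in adult wild type and 6.88 and 6.93 in adult KO2. It was higher at E19.5 by 0.85 ± 0.10 (adjusted p = 0.00643), and its KO2 fall of 2.46 exceeded the wild-type fall of 1.26 (stage difference -1.20, adjusted p = 0.0169). Eln, elastin, also late, was at 24.2 and 31.8 FPKM in E19.5 KO2 against 14.5 and 16.7. Angptl4, a lipase inhibitor induced by fasting and low oxygen, was at 11.5 and 10.4 against 3.47 and 5.49. E19.5 KO7 was above wild type as well in Col4a1 (39.9 and 42.5 FPKM) and Eln (20.7 and 17.5). Its Angptl4, at 7.27 and 5.2 FPKM, overlapped wild type. The lists that hold matrix genes did not share the higher E19.5 level. Of 12 genes of perineuronal nets and matrix none was higher and 2 were lower in E19.5 KO2. Of 15 genes of meninges and fibroblasts none was higher and 2 were lower. Meis1, a homeobox gene of progenitors, Ifi30, a lysosomal reductase, and Lefty2, a secreted Nodal inhibitor, were also late.

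H19, at the deleted H19-DMR, was among the late genes. It was 16 and 24.3 FPKM in wild type at E19.5, 35 and 38.2 in E19.5 KO2, 0.929 and 0.672 in adult wild type and 0.225 and 0.097 in adult KO2. In E19.5 KO7 it was higher still, at 95.7 and 87.7 FPKM. The E19.5 difference of KO2 from wild type was 0.86 ± 0.19 (adjusted p = 0.0411), and KO2 then fell further, by 5.02 against 3.53 (stage difference -1.49, adjusted p = 0.0409). Its neighbour Igf2 was 37.6 and 65.5 FPKM in wild type at E19.5, 35.1 and 38.4 in E19.5 KO2, 19.4 and 23.3 in adult wild type and 19.3 and 14.4 in adult KO2, and it fell in both genotypes, by 1.09 and 1.19 (stage difference 0.10 ± 0.34, adjusted p = 0.886). At the IG-DMR, Meg3 did not pass in either genotype (KO2 -0.27, wild type 0.03), the noncoding RNA gene Rian fell in both (-0.70 and -0.69), and Dlk1 was too variable between adult libraries to judge, at 2.11 and 18.6 FPKM in adult KO2. Of the 7 tested genes at these regions, H19 was the 1 called at E19.5 and in the stage difference.

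A stage change was named absent where the stage difference passed and the KO2 change was under 25% of the wild-type one or reversed. This held for 24 stage genes (0.805%), 11 that rise and 13 that fall in wild type, and 19 of them were also early. These 19 thus already differed from wild type at E19.5, toward the adult level. Without E19.5 wild-type replicate 1 there were 2 absent genes, and 4 to 6 without its replicate 2, either E19.5 KO2 replicate, adult KO2 replicate 1 or adult wild-type replicate 1. Beside Txnip, Arrdc3, Mt1 and Mt3, the members with the largest stage differences were Clec2d, C130071C03Rik, Slc25a34, Rpa3, Ankrd12 and Kcna5. Slc25a34, a mitochondrial carrier gene, was 0.694 and 1.22 FPKM in wild type at E19.5 and 3.55 to 4.77 in all other libraries of the 4 groups. Rpa3, a subunit of the single-strand DNA binding complex, was 28.1 and 24.1 FPKM in wild type at E19.5 and 6.63 to 11.7 in the others. In both genes the E19.5 KO2 libraries lay within the adult range. The 5 absent genes that were not early were Fgd4, Kank1, Naa38, Spin2 and Zbtb33.

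A further 15 genes changed with age in KO2 (at least 1 on the log2 scale) and not in wild type, with the stage difference passed. They were 0 without E19.5 wild-type replicate 1, 4 without its replicate 2 and 5 or 6 without a KO2 replicate at E19.5, adult KO2 replicate 1 or an adult wild-type replicate. They include genes high in E19.5 KO2 alone of the 4 groups. Ctla2a, a cysteine protease inhibitor gene, was 12.6 and 16.2 FPKM there and 2.84 to 3.42 in the other 6 libraries (stage difference -1.92 ± 0.19, adjusted p = 0.0108). Igfbp7, a secreted binding protein gene of vessels, was 44.4 and 43.5 FPKM there and 16 to 20.7 elsewhere (stage difference -1.44, adjusted p = 0.0144). Fabp4, a fatty acid carrier of capillaries, was 3.07 and 1.67 FPKM there and 0 to 0.487 elsewhere. It reached 1 FPKM only in E19.5 KO2, so it had to be high there to be tested and is no evidence by itself. E19.5 KO7 also held more Igfbp7 than wild type, at 39.2 and 33.5 FPKM. Its Ctla2a, at 5.73 and 4.34 FPKM, lay above E19.5 wild type and below E19.5 KO2. Adult KO3 held 5.03 and 30.6 FPKM of Ctla2a, the latter above both E19.5 KO2 libraries.

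Others of the 15 were high in adult KO2. Sgk1, a kinase gene induced by glucocorticoids and found in oligodendrocytes and neurons, was 63.4 and 73.8 FPKM in adult KO2, against 17.3 and 16.5 in adult wild-type set 1, 16.2 and 20.1 in E19.5 KO2 and 16.8 and 15.6 in E19.5 wild type. It rose with age by 1.87 ± 0.12 in KO2 and by 0.06 in wild type, which did not pass (stage difference 1.81 ± 0.17, adjusted p = 0.00985). Adult wild-type set 2 held 43.1 and 23.2 FPKM and adult KO3 66.4 and 88.2. With set 2 in place of set 1 the stage difference was 0.94 and no longer passed (adjusted p = 0.114). Xbp1, the transcription factor of the unfolded protein response, was 54.9 and 56.8 FPKM in adult KO2 and 18 to 29.5 in the other 6 libraries (stage difference 1.34 ± 0.13, adjusted p = 0.0108). Set 2 held 47.4 and 40.6 FPKM of it.

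Of 14 genes of the glucocorticoid response, Sgk1, the lipid droplet gene Plin4 and Tsc22d3 (GILZ), all direct targets of the receptor, were higher in adult KO2 than in adult set 1 (0.197% of all genes were), and none was lower. Plin4 was 4.76 and 3.86 FPKM in adult KO2 and 0.718 and 0.918 in adult wild-type set 1, and 2.26 and 2.42 in set 2. Tsc22d3 was 61.9 and 52.2 FPKM in adult KO2, 20.7 and 23.3 in set 1 and 38.6 and 36.1 in set 2. In each of the 3 genes adult set 2 lay between set 1 and KO2. At E19.5, 5 of the 14 were higher in KO2, Mt1, Mt2 and Tsc22d3 among them, where 3.24% of all genes were. Without 1 E19.5 library there were 3 (without KO2 replicate 1 or wild-type replicate 2) or 2, and the E19.5 difference of Tsc22d3 passed in 3 of 18 settings. The hour at which brains were collected is not in the labels. Of 17 clock genes, which vary over the day, 2 passed in the stage difference, 1 in each direction (1.76% higher and 1.2% lower over all genes). Per3 rose by 2.44 in KO2 and 1.58 in wild type (stage difference 0.85, adjusted p = 0.0386), and Arntl, which peaks opposite to it, was 8.98 and 7.69 FPKM in adult KO2 against 14.2 and 13.1 in set 1 (stage difference -0.76, adjusted p = 0.0436). The part of collection time or handling in these adult values was not tested.

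In the adult, 5 stage genes stayed short of the wild-type level in KO2 and 4 went beyond it. The short ones were Rasgrf1, Txnip, Dusp4, Wdr43 and Smchd1. Dusp4, a phosphatase gene that ends ERK signals, was 21.7 and 23.4 FPKM in wild type at E19.5, 15.2 and 15.4 in E19.5 KO2, 3.53 and 3.69 in adult wild type and 8.4 and 6.45 in adult KO2, early at E19.5 and then short of the adult level. Smchd1, a chromatin protein gene of the inactive X and imprinted loci, was 9.15 and 8.51 FPKM in adult KO2 against 4.98 and 5.03 in set 1. Beyond the adult level were Serpina3n, Gm129, 2900052N01Rik and Mmp14. Serpina3n, a protease inhibitor gene of reactive astrocytes, was 2.36 and 2.92 FPKM in wild type at E19.5, 11.4 and 10.9 in E19.5 KO2, 9.86 and 11.7 in adult wild type and 36.7 and 34.9 in adult KO2. It was thus at the adult wild-type level by E19.5 and rose by a like amount afterwards, 1.59 in KO2 and 1.69 in wild type. These adult counts depend on the wild-type set: against set 2, whose low values were listed as 0, 972 were short and 124 beyond. Against set 1, leaving out 1 library gave 0 to 20 short genes (0 without adult KO2 replicate 1, adult wild-type replicate 1 or E19.5 wild-type replicate 1, and 20 without adult KO2 replicate 2) and 1 to 7 beyond (1 without replicate 1 of either adult group, 7 without adult KO2 replicate 2). The adult difference of Serpina3n passed in 17 of 18 settings.

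Amd1, an enzyme gene of polyamine synthesis, had the lowest stage difference (-3.46 ± 0.69, adjusted p = 0.0466). It was 0.0504 and 0.106 FPKM in adult KO2, 17.9 and 4.94 in E19.5 KO2, 36.4 and 18.5 in adult wild type and 21.8 and 24.6 in E19.5 wild type. Amd1 has near-identical copies in the genome between which the authors' counting could split reads, so this value is uncertain.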

How the data were processed

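Poly(A) RNA of mouse brain was sequenced in 14 libraries, of which 8 entered the fit. The deposited table holds FPKM, computed by the authors for each library. Among tools, the submitters' processing notes list Cufflinks 2.2.1, TopHat2 2.1.1 and CASAVA, and as build mm9. What annotation, filters, strand setting and scaling were used is not given in the sources used here. Columns of adult KO3 and wild-type set 2 carry no FPKM header word and list low values as 0, so they were kept out of the main fit. FPKM gives no read totals, so neither depth nor a counting error can be stated.

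Values were taken as log2(FPKM + 1), with a pseudocount of 1. The means of the 4 groups came from limma 3.58.1 (R 4.3.3) with a variance trend, 2-sided tests, 4 residual and 3.99 prior degrees of freedom, and Benjamini-Hochberg adjustment over all 13695 genes tested and a threshold of 0.05. A gene had to reach 1 FPKM in 2 of the 4 KO2 libraries. A further 2 entries of the table named no gene and were left out, and 201 genes reached 1 FPKM in at least 2 wild-type libraries but not in KO2 and were not tested.

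Named genes are the 10 largest rises and falls in KO2, up to 10 with the largest deciding difference in each class (stage difference, early, late, short, beyond, absent, only in KO2), from each gene list up to 4 members with the largest KO2 change and all whose stage difference passed, and all tested genes at the deleted regions, of the NMDA and GABA-A receptors, Xist and Rasgrf1. Other members given as examples (such as Arrdc4's neighbours in its list, Hk1, Cspg4, Aqp4 or Gpr17) were chosen after their values were seen. A few genes meeting this rule are not reported here. The members, lists and rules were chosen with earlier results of these data known. Lists are described by counts and medians and were not tested as sets. Promoters are RefSeq windows of GRCm38.p6, matched by symbol for 5 of 5 genes looked up. The fit was tested on simulated data with 200 known stage differences in each of 5 draws. It recovered 0% of those of 0.5 (log2), 54.8% of those of 1 and 90.1% of those of 2. Of the calls 4.2% were false at a size of 1 and 3.33% at 2. A stage difference of 1 or less that did not pass is therefore not shown to be absent. Simulated noise was drawn independently for each gene and library, so the false shares do not cover deviations that a library shares across genes. Alternatives were other pseudocounts, filters, scalings, no trend, a replicate block, wild-type set 2, all 14 libraries, each library left out, and, added after seeing the data, directions from E19.5 KO7.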

Additional observations from a re-analysis of the deposited data

Results flagged for a closer look

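Stage changes that differed between KO2 and wild type by the test of the difference itself are listed here, for the genes with the largest difference in each class. Values are the KO2 stage change minus the wild-type stage change on the log2(FPKM + 1) scale, from limma over 2 libraries a group. Each passed at an adjusted p under 0.05, and most do not hold when a library is left out.

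Genes with the higher value in KO2 were Txnip (3.41), Sgk1 (1.81), C130071C03Rik (1.54), the phosphatase gene Dusp4 (1.39), the apelin receptor gene Aplnr (1.39), the cold-induced RNA-binding gene Rbm3 (1.36), Arrdc3 (1.35), Xbp1 (1.34), Gm129 (1.27), the neuronal transcription factor gene Bhlhe22 (1.26), Rpa3 (1.25) and Ankrd12 (1.24). Rbm3 was 259 and 203 FPKM in wild type at E19.5, 112 and 126 in E19.5 KO2, 30.7 and 32.5 in adult wild type and 45.8 and 39.7 in adult KO2.

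Lower values in KO2 were found for Amd1 (-3.46, uncertain because of near-identical copies), Mt3 (-2.70), Mt1 (-2.68), Penk (-2.54), Mbp (-2.40), Fam107a (-2.38), Ctla2a (-1.92), the astrocyte receptor gene Ntsr2 (-1.91), Ndufa4l2 (-1.88), Fabp4 (-1.84), Clec2d (-1.58), Igfbp7 (-1.44), Dynlrb2 (-1.32), Pnmt (-1.30), Slc25a34 (-1.27), the acyl-CoA-binding protein gene Dbi (-1.15) and the potassium channel gene Kcna5 (-1.14). Ntsr2 was 1.84 and 4.01 FPKM in wild type at E19.5, 14.2 and 9.98 in E19.5 KO2, 102 and 113 in adult wild type and 90.2 and 106 in adult KO2. Fabp4 met the minimum of 1 FPKM only through E19.5 KO2, the group where it is high.

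Of these, Txnip passed in 18 of 18 alternative settings, Xbp1 in 17, Mt1, Mt3, Fam107a and Ctla2a in 16 and Sgk1 in 15. Pnmt passed in none, Rpa3 and Dynlrb2 in 3, Gm129 and Fabp4 in 4 and Mbp in 5. The others passed in 6 to 13.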

How the results depend on the processing

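KO2 rises (3493) and falls (4860) and wild-type calls (9090) stayed within 1.5 times of these counts in each alternative run, at 2765 to 4185, 3992 to 5053 and 7698 to 9531. The smaller classes did not. Stage differences (405) numbered 58 with no filter on low values, 7 with all 14 libraries, 1085 with adult wild-type set 2, 66 without the variance trend and 3 to 121 with 1 library left out. Early genes (339) numbered 191 with a pseudocount of 10, 171 with no filter, 96 with all 14 libraries and 21 to 292 with 1 library left out. Late genes (14) numbered 3 with a pseudocount of 10, 3 with no filter, 6 with all 14 libraries, 23 with set 2, 29 with directions from E19.5 KO7 and 0 to 14 with 1 library left out.

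Adult short genes (5) numbered 2 with no filter, 3 with median-of-ratios scaling, 2 with quantile scaling, 2 with all 14 libraries, 972 with set 2 and 0 to 20 with 1 library left out. Adult beyond genes (4) numbered 1, 2 and 124 with no filter, all 14 libraries and set 2, and 1 to 7 with 1 library left out. Absent genes (24) numbered 6 with a pseudocount of 10, 10 with no filter, 2 with all 14 libraries, 194 with set 2, 12 without the trend and 2 to 25 with 1 library left out. Genes changing in KO2 alone (15) numbered 5, 5, 1, 35 and 4 in the same 5 settings and 0 to 14 with 1 library left out. With a pseudocount of 10, 43.9% of the called E19.5 differences were higher in KO2, against 56.1%. Fewer libraries and more genes tested are part of what leave-one-out and the missing filter change. Otherwise the cause was not tested.

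With adult wild-type set 2, 6 gene values turned sign: the stage differences of Hes5 (0.92), Syt4 (-0.035), Homer3 (-0.78), Mt2 (0.24) and Rplp2 (0.82) and the adult difference of Hes5 (0.70). Over all named genes and settings, 3683 KO2 stage changes kept their call and 79 lost it, 779 and 283 E19.5 differences, 496 and 669 stage differences and 156 and 95 adult differences.

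Libraries share replicate numbers across groups, but deviations of same-numbered libraries correlated between -0.059 and 0.329 and not all above 0.1, so the numbers were not taken as pairs. With the replicate block there were 394 stage differences, 392 early and 14 late genes, 4 short, 6 beyond, 25 absent and 12 in KO2 alone. Depth is unknown, so low genes carry an error that cannot be stated.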
